A study of Cricetulus griseus with 20 samples.

Results

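Cells taken at day 3 (D3) of adipogenic differentiation after hypoxia were set against cells taken at day 7 (D7) in normoxia. The pair was chosen by its expression profiles, because hypoxic D3 cells resembled normoxic D7 cells more closely than either resembled the other oxygen condition of its own day. It holds 4 of the 20 libraries of the series: Hypoxia_D3_1, Hypoxia_D3_2, Normoxia_D7_1 and Normoxia_D7_2. All cells were primary preadipocytes of the Chinese hamster, *Cricetulus griseus*, isolated from inguinal white adipose tissue of female animals aged 6 weeks. The tissue of all animals was pooled, so the libraries do not represent separate animals, and the 2 libraries of a group are biological replicates by the study's account, which does not say how they were kept apart. Both groups received the same induction cocktail of dexamethasone, insulin and IBMX, followed by maintenance medium with insulin. The Hypoxia_D3 cells spent the last 24 h before harvest in a chamber with 1% oxygen, and the Normoxia_D7 cells stayed in ambient air and had 4 further days of culture. Treatment and stage therefore change together between the groups, and their parts cannot be told apart within the pair.

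Oxygen shortage stabilises hypoxia-inducible factors (HIFs), transcription factors that raise glucose uptake, glycolysis, mitophagy genes and collagen-modifying enzymes. Adipogenesis in culture starts with dexamethasone and a cAMP-raising agent, passes through rounds of cell division, and then moves to PPARγ-driven genes for fatty acid uptake and lipid droplets. A gene that is alike in hypoxic D3 and normoxic D7 cells can have reached that level by hypoxia, by later stage, or can have been level throughout. For that reason the untreated D3 cells (Normoxia_D3) are given beside the pair.

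Abundance was given as TPM, a share of all transcripts corrected for their length. Each mRNA was compared as the difference Hypoxia_D3 minus Normoxia_D7 in log2(TPM + 1), less the median difference of all mRNAs, which was 0.08. This relative difference is the quantity given below unless a sentence says otherwise, with its standard error (SE) from limma. An mRNA was taken to differ when the Benjamini-Hochberg adjusted p of limma was under 0.05 and the relative difference was beyond 1 in either direction. It was taken to agree when the 95% interval of the relative difference lay wholly between -1 and 1. These values also chose the pair, so they are description and their counts carry no test.

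On the log2 scale, Pearson's r between mRNA profiles was 0.978 to 0.980 over the 4 library pairs of Hypoxia_D3 and Normoxia_D7. It was 0.975 to 0.978 between Hypoxia_D3 and Normoxia_D3, and 0.962 to 0.973 between Hypoxia_D7 and Normoxia_D7. The 2 libraries of each group had an r of 0.996. On this scale the mean r was 0.979 for Hypoxia_D3 with Normoxia_D7, 0.977 for Hypoxia_D3 with Normoxia_D3 and 0.967 for Hypoxia_D7 with Normoxia_D7. The order thus held narrowly in the means, while the ranges of Hypoxia_D3 with Normoxia_D7 and with Normoxia_D3 met at 0.978. The order did not hold on untransformed TPM, where r was 0.938 to 0.962 for Hypoxia_D3 with Normoxia_D7 and 0.947 to 0.956 for Hypoxia_D7 with Normoxia_D7. Among lncRNAs these ranges met over nearly their whole width, at 0.918 to 0.923 for Hypoxia_D3 with Normoxia_D7 and 0.917 to 0.923 for Hypoxia_D3 with Normoxia_D3. The likeness of the pair was thus a small margin of the means in mRNAs, and no margin for Hypoxia_D3 in lncRNAs.

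Of the 10318 mRNAs, 9754 agreed, which is 94.5% of all mRNAs. A further 70 were higher in Hypoxia_D3 (0.678%) and 104 were lower (1.01%), and 390 met neither definition. Agreement was to within the limits of -1 and 1 and did not mean equal levels. At an adjusted p of limma under 0.05 and any size, 1267 mRNAs were above and 1058 below the median difference. With a 1.5-fold margin, 7501 mRNAs agreed. The libraries of the 2 groups did not overlap for any of the mRNAs that differed, whereas 67.7% of all mRNAs did not overlap. Just inside the limit, Map2k6 stood at 1.00 ± 0.18 (SE), and just outside it Cdca8 stood at 1.00 ± 0.10 and Slc22a23 at -0.99 ± 0.13. Names were known for 3853 mRNAs, chiefly those that the study had called or listed, and for 42 of the higher, 63 of the lower and 3559 of the agreeing mRNAs. The study's calls compared hypoxia with normoxia at each day in these same libraries, so they had a part in which genes could be named.

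Bulk RNA was measured, so that fewer cells of a type and less RNA per cell cannot be told apart in any value below.

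The genes that agreed while standing far above Normoxia_D3 included several HIF targets. Bnip3, a mitophagy receptor of the outer mitochondrial membrane, had 311 and 333 TPM in Hypoxia_D3, against 216 and 242 TPM in Normoxia_D7. In Normoxia_D3 it had 51.9 and 66.8 TPM, below all 4 libraries of the pair. Pgk1, the phosphoglycerate kinase of glycolysis, had 1071 and 1024 TPM in Hypoxia_D3, against 744 and 811 TPM in Normoxia_D7, with 235 and 293 TPM in Normoxia_D3. Ankrd37, a small ankyrin repeat protein and HIF target, had 13.4 and 14.5 TPM in Hypoxia_D3, against 10.5 and 11.5 TPM in Normoxia_D7. Its libraries in Normoxia_D3 held 2.6 and 2.92 TPM. Each of these genes was slightly higher in Hypoxia_D3, by 0.42 ± 0.14 for Bnip3, 0.35 ± 0.12 for Pgk1 and 0.24 ± 0.10 for Ankrd37 (SE).

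Ccng2, a cyclin linked to exit from the cell cycle, had 86.7 and 79.3 TPM in Hypoxia_D3, against 65.4 and 70.5 TPM in Normoxia_D7. Ero1l, the oxidase that drives disulphide formation in the endoplasmic reticulum, had 34.0 and 31.3 TPM in Hypoxia_D3, against 20.3 and 31.3 TPM in Normoxia_D7, so that its libraries met at the upper end. Without library 2 of Normoxia_D7, the interval of Ero1l no longer lay inside the limits, at a relative difference of 0.53. Prelid2, of the family of mitochondrial lipid transfer proteins, had 71.5 and 75.2 TPM in Hypoxia_D3, against 64.8 and 66.9 TPM in Normoxia_D7. Krt7, a keratin of simple epithelia, had 11.1 and 10.5 TPM in Hypoxia_D3, against 8.68 and 9.39 TPM in Normoxia_D7.

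Txnip, an inhibitor of thioredoxin and of glucose uptake, went furthest the other way among these genes, with 373 and 363 TPM in Hypoxia_D3, against 556 and 596 TPM in Normoxia_D7. Its relative difference of -0.72 ± 0.13 lay near the limit of agreement, and it left that limit when any 1 of the 4 libraries was left out. Both groups nevertheless stood well above the 105 and 122 TPM of Normoxia_D3. These 8 genes were picked for having moved in both groups away from Normoxia_D3, so the distance from Normoxia_D3 is a property of the choice.

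**Figure D1:**
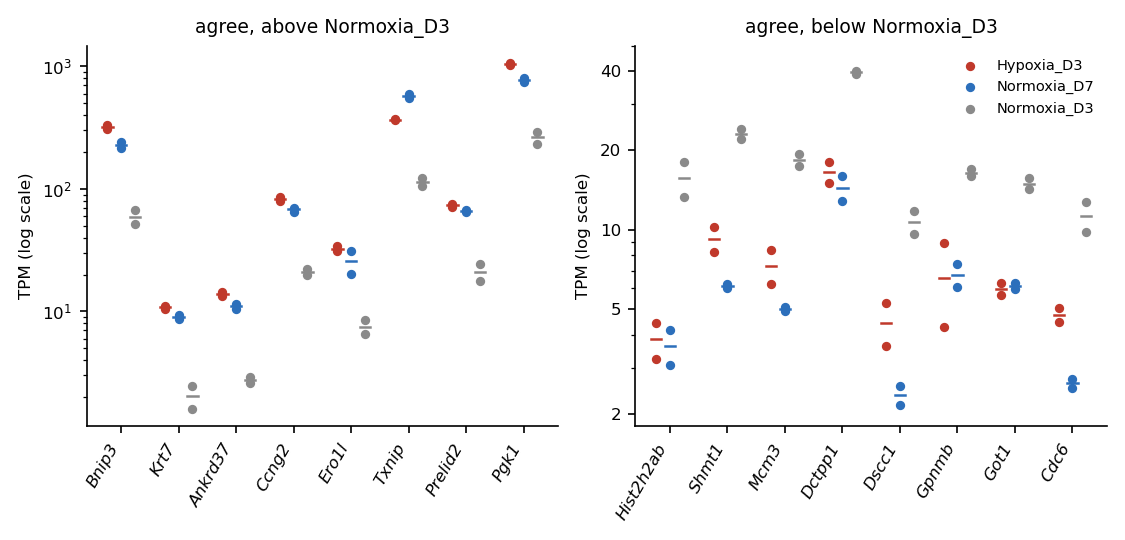
TPM on a log scale of the 8 agreeing mRNAs furthest above and the 8 furthest below Normoxia_D3, with a point for each library of Hypoxia_D3, Normoxia_D7 and Normoxia_D3 and a bar at the mean of the 2 libraries. In the left panel Bnip3 stands at 311 and 333 TPM in Hypoxia_D3 and at 216 and 242 TPM in Normoxia_D7, with both Normoxia_D3 libraries under 70 TPM; in the right panel both groups lie below Normoxia_D3 for every gene.

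The same 8 genes could be read in libraries that had no part in choosing the pair, where a gene is said to be called when it passed the same adjusted p and size. The spread behind that p came from all 20 libraries, those of the pair included. Names were chiefly those of genes that the study had called or listed, and its calls compared hypoxia with normoxia, at D0 and D1 among other days. The hypoxia calls of these 8 genes are thus in part built into the choice. The shares below are of all mRNAs, named or not. All 8 were called higher in hypoxia at D0, before induction, where 0.969% of all mRNAs were called higher and 0.0291% lower. All 8 were also called higher in hypoxia at D1, where 1.57% of all mRNAs were called higher and 0.291% lower. In normoxia, all 8 were called higher in the libraries labelled D11 than at D1, where 10.9% of all mRNAs were called higher and 7.88% lower. Relative differences ran between 1.16 and 3.80 for hypoxia at D0, between 1.44 and 3.82 for hypoxia at D1, and between 2.75 and 5.52 for D11 against D1. The D1 normoxic libraries enter both of the last 2 comparisons, so these do not stand apart from each other.

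The HIF target list, which shares Slc2a1 and Pfkfb4 with the glycolysis list, held 39 named genes, of which 28 agreed, 5 were higher in Hypoxia_D3, 6 met neither definition and none was lower. Fewer of its genes agreed than the 94.5% of all mRNAs, and more were higher than the 0.678% of all. The median relative difference of the list was 0.37, against 0.00 over all mRNAs. Side by side, the median of the list was 1.49 for Hypoxia_D3 minus Normoxia_D3 and 1.05 for Normoxia_D7 minus Normoxia_D3, and these 2 comparisons share the Normoxia_D3 libraries. The agreeing members with the highest TPM were Hilpda, Mif and Bnip3. Hilpda, a lipid droplet protein that inhibits lipolysis, had 511 and 483 TPM in Hypoxia_D3, against 391 and 426 TPM in Normoxia_D7. Mif, a cytokine, had 431 and 400 TPM in Hypoxia_D3, against 393 and 413 TPM in Normoxia_D7, and its groups overlapped. Vegfa, the angiogenic growth factor, averaged 45.5 TPM in Hypoxia_D3 and 42.4 TPM in Normoxia_D7 (n = 2 each), while Normoxia_D3 was as high, at 45.4 TPM. Ndufa4l2, which lowers complex I activity in hypoxia, had 162 and 188 TPM in Hypoxia_D3, against 252 and 312 TPM in Normoxia_D7, and at -0.76 ± 0.23 (SE) was the member furthest below the median.

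Glycolysis showed the same picture at high abundance. Of its 13 named genes, 12 agreed and 1, the glucose transporter Slc2a1, was higher in Hypoxia_D3, beside 94.5% and 0.678% of all mRNAs. Gapdh had 1523 and 1473 TPM in Hypoxia_D3, against 1013 and 1153 TPM in Normoxia_D7, and Ldha, the lactate dehydrogenase subunit, had 908 and 880 TPM in Hypoxia_D3, against 707 and 751 TPM in Normoxia_D7. The groups did not overlap for either gene, and the relative differences were 0.39 ± 0.13 and 0.22 ± 0.12. The median of the list was 0.37 in the pair, beside 1.32 for Hypoxia_D3 minus Normoxia_D3 and 0.83 for Normoxia_D7 minus Normoxia_D3. In the glycogen list 4 of 6 named genes agreed and none differed, yet every member lay above the median, between 0.20 and 0.91. Gbe1, the branching enzyme of glycogen, had 68.5 and 60.6 TPM in Hypoxia_D3, against 35.9 and 39.3 TPM in Normoxia_D7.

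The 8 named genes that agreed furthest below Normoxia_D3 had roles in DNA replication, metabolism and the lysosome. Mcm3, a subunit of the replicative helicase, had 8.40 and 6.24 TPM in Hypoxia_D3, against 4.91 and 5.09 TPM in Normoxia_D7, and 17.5 and 19.4 TPM in Normoxia_D3. Cdc6, which loads that helicase, had 5.05 and 4.48 TPM in Hypoxia_D3, against 2.52 and 2.73 TPM in Normoxia_D7. Shmt1, the cytosolic serine hydroxymethyltransferase, had 10.3 and 8.22 TPM in Hypoxia_D3, against 6.23 and 6.00 TPM in Normoxia_D7. In each of these genes the hypoxic D3 cells kept somewhat more transcript than the normoxic D7 cells, by 0.38 ± 0.14, 0.59 ± 0.12 and 0.44 ± 0.11 (SE).

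Dscc1, a subunit of a clamp loader for sister chromatid cohesion, had 5.28 and 3.62 TPM in Hypoxia_D3, against 2.16 and 2.56 TPM in Normoxia_D7. Dctpp1, a nucleotide pyrophosphatase, had 15.0 and 18.1 TPM in Hypoxia_D3, against 16.0 and 12.8 TPM in Normoxia_D7. Got1, the cytosolic aspartate aminotransferase, had 6.30 and 5.66 TPM in Hypoxia_D3, against 5.99 and 6.28 TPM in Normoxia_D7. The groups overlapped for Dctpp1 and Got1 and not for Dscc1, whose relative difference was 0.60 ± 0.17. Dscc1 no longer agreed without Hypoxia_D3_2 or without Normoxia_D7_2, at 0.64 to 0.79 over these and 2 other settings. Hist2h2ab, a replication-linked histone of a family with near-identical copies whose reads may be split, had 3.24 and 4.44 TPM in Hypoxia_D3, against 3.08 and 4.18 TPM in Normoxia_D7. Gpnmb, a membrane glycoprotein of lysosome-rich cells, had 8.89 and 4.29 TPM in Hypoxia_D3, against 6.05 and 7.41 TPM in Normoxia_D7, and it no longer agreed without Hypoxia_D3_1, at -0.59. Of these 8 genes none was called in hypoxia at D0, 1 was called lower in hypoxia at D1, and 4 were called lower in the libraries labelled Normoxia_D11 than in Normoxia_D1, beside 0.0291%, 0.291% and 7.88% of all mRNAs. With the libraries labelled Hypoxia_D11 in their place, 6 of the 8 were called lower than Normoxia_D1, where 8.93% of all mRNAs were.

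Every named gene of the replication and mitosis lists lay above the median of all mRNAs in Hypoxia_D3. The replication list held 31 named genes, between 0.06 and 1.03 with a median of 0.49. Of these 23 agreed, 2 were higher in Hypoxia_D3 and none was lower, beside 94.5%, 0.678% and 1.01% of all mRNAs. Its higher members were Tk1, the thymidine kinase, with 24.0 and 21.3 TPM in Hypoxia_D3, against 10.1 and 9.86 TPM in Normoxia_D7, and Uhrf1, which reads hemimethylated DNA, with 10.3 and 8.97 TPM in Hypoxia_D3, against 3.79 and 4.11 TPM in Normoxia_D7. Pcna, the sliding clamp, agreed at 103 and 83.4 TPM in Hypoxia_D3, against 59.2 and 65.2 TPM in Normoxia_D7. Rpa2 and Tyms were closest, with relative differences of 0.06 ± 0.12 and 0.06 ± 0.14.

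The 32 named genes of the mitosis list lay between 0.44 and 1.18, with a median of 0.85, and no test compared the lists with each other. Of these 5 were higher, 10 agreed and 17 met neither definition, where 0.678% of all mRNAs were higher and 94.5% agreed. CCNB1, the mitotic cyclin B1, had 75.7 and 67.6 TPM in Hypoxia_D3, against 33.7 and 32.2 TPM in Normoxia_D7. Cdca5, which protects sister chromatid cohesion, had 8.08 and 7.16 TPM in Hypoxia_D3, against 2.94 and 2.32 TPM in Normoxia_D7. Nuf2, of the outer kinetochore, had 16.9 and 13 TPM in Hypoxia_D3, against 5.58 and 6.64 TPM in Normoxia_D7. The groups did not overlap for these 3 genes, as for every mRNA that differed. In Normoxia_D3 the 3 genes had 82.1 and 94.1 TPM, 11.6 and 13.8 TPM, and 20.2 and 20.2 TPM. Side by side, the median of the mitosis list was -0.24 for Hypoxia_D3 minus Normoxia_D3 and -1.01 for Normoxia_D7 minus Normoxia_D3, and that of the replication list was -0.82 and -1.29. In hypoxia at D0 and at D1 limma called no member of either list in either direction. At an unadjusted p under 0.05, 6 mitosis genes were higher and 6 replication genes were lower at D0, and 2 mitosis genes were higher, 3 mitosis genes lower and 23 replication genes lower at D1. The share of all mRNAs at that p is not given, so these counts are description alone. 

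**Figure D2:**
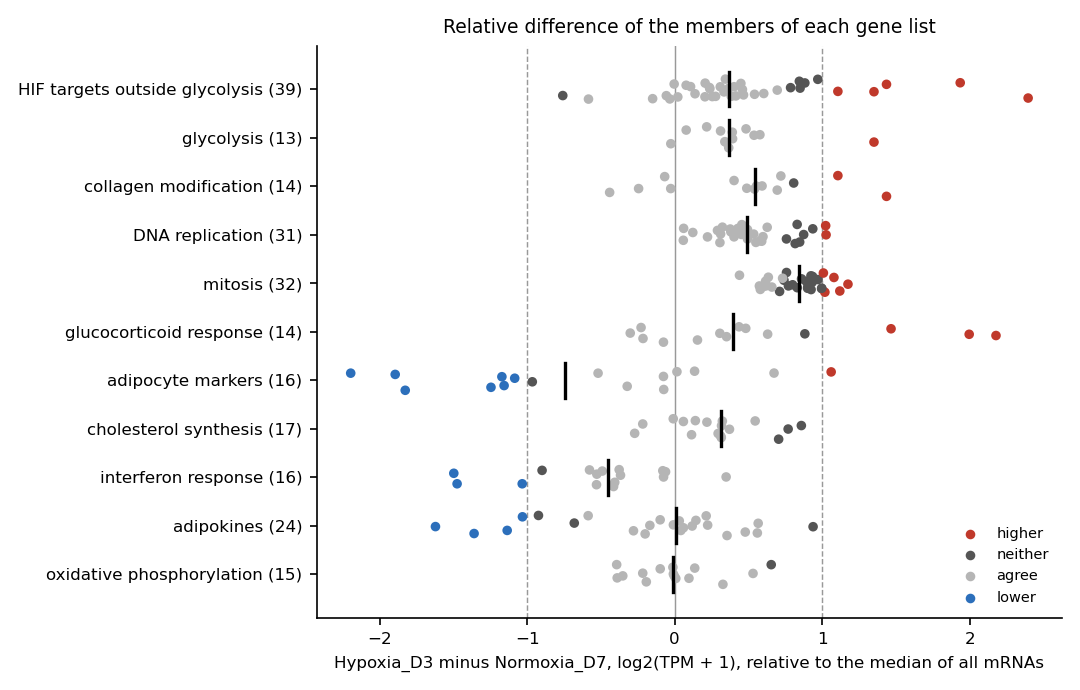
Relative difference, Hypoxia_D3 minus Normoxia_D7 in log2(TPM + 1) less the median of all mRNAs, for each named member of 11 gene lists (number of members in brackets), coloured by whether it was higher, lower, agreeing or neither, with a black bar at the median of the list and dashed lines at -1 and 1. The medians of the mitosis and adipocyte marker lists, 0.85 and -0.74, lie furthest apart, and the HIF target list has 28 of 39 members agreeing with 5 reaching beyond 1.

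Among mRNAs higher in Hypoxia_D3, some HIF targets went beyond the level of normoxic D7 cells. Slc2a1, the glucose transporter GLUT1, had 104 and 108 TPM in Hypoxia_D3, against 38.4 and 38.9 TPM in Normoxia_D7, at 1.35 ± 0.16 (SE). Tmem45a, a membrane protein raised by hypoxia, had 24.5 and 26.2 TPM in Hypoxia_D3, against 5.57 and 5.49 TPM in Normoxia_D7, at 1.94 ± 0.16. Slc2a1 and Tmem45a were also higher in Normoxia_D7 than the 21.2 and 28.2 TPM and the 1.57 and 2.97 TPM of Normoxia_D3.

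Enzymes of collagen modification stood in the same group. P4ha2, a subunit of collagen prolyl 4-hydroxylase, had 102 and 97.4 TPM in Hypoxia_D3, against 34.1 and 34.4 TPM in Normoxia_D7, at 1.44 ± 0.12. Plod2, the lysyl hydroxylase of collagen telopeptides, had 109 and 97.6 TPM in Hypoxia_D3, against 42.5 and 47.6 TPM in Normoxia_D7, at 1.11 ± 0.15. Of the 14 named genes of the collagen modification list, 11 agreed and 2 were higher, beside 94.5% and 0.678% of all mRNAs. The list had a median of 0.55. The agreeing members with the highest TPM were P4hb, at 579 and 535 TPM in Hypoxia_D3, against 322 and 318 TPM in Normoxia_D7, and P4ha1, at 308 and 306 TPM in Hypoxia_D3, against 190 and 210 TPM in Normoxia_D7. Both encode subunits of the same prolyl hydroxylase as P4ha2.

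The metallothioneins, which bind zinc and copper and respond to glucocorticoids and metals, were far higher in Hypoxia_D3. Mt1 had 3171 and 2500 TPM in Hypoxia_D3, against 656 and 528 TPM in Normoxia_D7, at 2.18 ± 0.21, and Mt2 had 206 and 155 TPM in Hypoxia_D3, against 45.3 and 38.3 TPM in Normoxia_D7, at 2.00 ± 0.16. The 2 genes are close paralogs, and reads shared between them may be split. Fkbp5, a chaperone of the glucocorticoid receptor and a target of that receptor, had 70.0 and 65.5 TPM in Hypoxia_D3, against 24.2 and 21.0 TPM in Normoxia_D7. Of the 14 named genes of the glucocorticoid response list these 3 were higher, 10 agreed and none was lower. The shares over all mRNAs were 0.678%, 94.5% and 1.01%. Tsc22d3, a further target of the receptor, agreed at 0.63 ± 0.15, with 113 and 94.7 TPM in Hypoxia_D3, against 65.8 and 60.4 TPM in Normoxia_D7. The time since the cells left dexamethasone differed between the groups as their day did, and its part in these values was not tested. In hypoxia at D0, before induction, Mt1 and Mt2 were also called higher, where 0.969% of all mRNAs were, and Fkbp5 was not called.

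Genes of the extracellular space and the surface were also found on the higher side. Vcan, the matrix proteoglycan versican, had 18.1 and 17.7 TPM in Hypoxia_D3, against 3.86 and 3.90 TPM in Normoxia_D7, at 1.88 ± 0.13. Igfbp4, which binds insulin-like growth factors, had 121 and 101 TPM in Hypoxia_D3, against 25.9 and 37.0 TPM in Normoxia_D7, at 1.73 ± 0.16. Sema3a, a secreted semaphorin, had 31.6 and 27.6 TPM in Hypoxia_D3, against 11 and 11.4 TPM in Normoxia_D7, at 1.25 ± 0.15. Normoxia_D3 was near or above Hypoxia_D3 in all 3, with 13.5 and 16.9 TPM, 77.6 and 96.0 TPM, and 41.4 and 46.6 TPM.

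Of the remaining named genes, Hist1h2bk, a histone whose family has near-identical copies, had 38.7 and 36.6 TPM in Hypoxia_D3, against 11.4 and 11.2 TPM in Normoxia_D7. Tmem258, a subunit of the oligosaccharyltransferase, had 357 and 351 TPM in Hypoxia_D3, against 125 and 128 TPM in Normoxia_D7. Ciart, a repressor of the circadian clock, had 14.4 and 14.7 TPM in Hypoxia_D3, against 5.05 and 4.50 TPM in Normoxia_D7. It was the 1 member of 10 named clock genes that was higher, and 8 others agreed, beside 0.678% and 94.5% of all mRNAs.

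**Figure D3:**
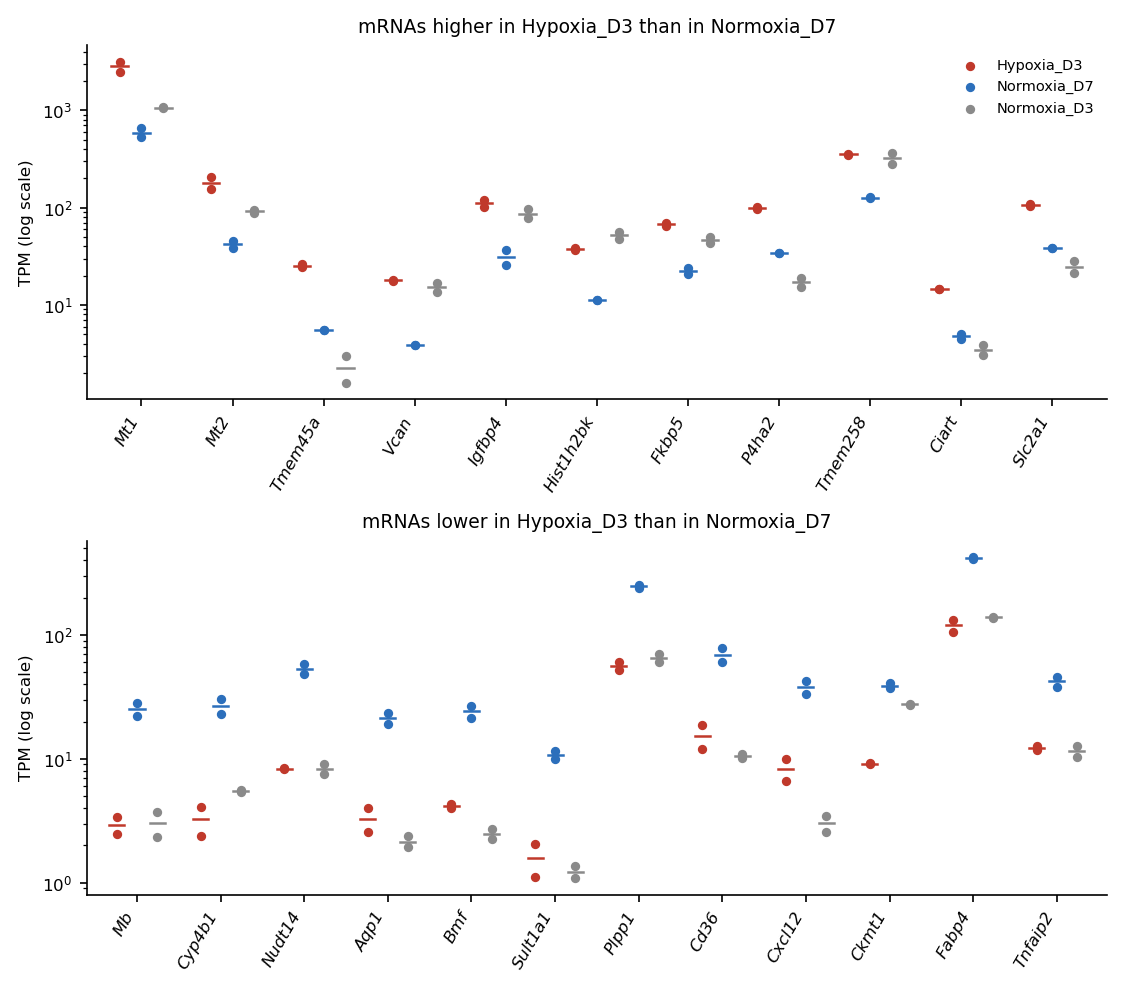
TPM on a log scale of 11 of the 12 named mRNAs furthest above (upper panel) and the 12 furthest below (lower panel) Normoxia_D7 in Hypoxia_D3, with a point for each library of Hypoxia_D3, Normoxia_D7 and Normoxia_D3 and a bar at the mean of the 2 libraries. Mt1 stands at 3171 and 2500 TPM in Hypoxia_D3 and at 656 and 528 TPM in Normoxia_D7; for most genes of the lower panel, such as Mb and Nudt14, Hypoxia_D3 lies near Normoxia_D3.

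On the lower side stood genes of the maturing adipocyte. Fabp4, the fatty acid binding protein of adipocytes, had 132 and 107 TPM in Hypoxia_D3, against 428 and 414 TPM in Normoxia_D7, at -1.89 ± 0.15 (SE). Cd36, a fatty acid transporter, had 18.6 and 12.1 TPM in Hypoxia_D3, against 60.5 and 77.8 TPM in Normoxia_D7, at -2.20 ± 0.19. Lpl, the lipoprotein lipase, had 2.80 and 1.66 TPM in Hypoxia_D3, against 5.24 and 7.19 TPM in Normoxia_D7. Plin2, a lipid droplet coat protein, had 179 and 165 TPM in Hypoxia_D3, against 360 and 375 TPM in Normoxia_D7. As for every mRNA that differed, the libraries of the 2 groups did not overlap in these 4 genes. Fabp4, Lpl and Plin2 had levels in Normoxia_D3 similar to Hypoxia_D3, with 138 and 140 TPM, 2.85 and 2.40 TPM, and 174 and 187 TPM.

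Of the 16 named adipocyte markers, 7 were lower in Hypoxia_D3, 7 agreed, 1 was higher and 1 met neither definition, with a median of -0.74. Of all mRNAs 1.01% were lower, 94.5% agreed and 0.678% were higher. Only these 16 of the 37 listed markers had a name, and names were chiefly those of genes the study had called or listed. Gpd1, which makes glycerol 3-phosphate for triglycerides, had 0.299 and 0.338 TPM in Hypoxia_D3, against 3.49 and 3.38 TPM in Normoxia_D7. Pparg, the master regulator of adipogenesis, had 44.1 and 35.4 TPM in Hypoxia_D3, against 68.0 and 80.5 TPM in Normoxia_D7, at -0.96 ± 0.15. The 1 higher marker was Dgat2, of the last step of triglyceride synthesis, at 2.81 and 3.62 TPM in Hypoxia_D3, against 0.871 and 0.944 TPM in Normoxia_D7. Of the 10 named genes of fatty acid and triglyceride synthesis 7 agreed. Fasn, the fatty acid synthase, agreed at -0.07 ± 0.13 with 5.68 and 6.02 TPM in Hypoxia_D3, against 5.53 and 6.14 TPM in Normoxia_D7. Both groups were below the 12.9 and 14.4 TPM that Fasn had in Normoxia_D3. In the lipolysis list of the study 9 of 11 genes agreed and 2, Lpl and Plin2, were lower, and in cholesterol synthesis 14 of 17 named genes agreed and none differed.

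The named genes furthest below had varied roles. Mb, the oxygen store myoglobin, had 3.36 and 2.48 TPM in Hypoxia_D3, against 22.4 and 28.2 TPM in Normoxia_D7, at -2.82 ± 0.16. Cyp4b1, a cytochrome P450, had 4.11 and 2.39 TPM in Hypoxia_D3, against 23.0 and 30.6 TPM in Normoxia_D7, at -2.80 ± 0.19. Nudt14, a UDP-glucose pyrophosphatase, had 8.28 and 8.37 TPM in Hypoxia_D3, against 58.1 and 48.5 TPM in Normoxia_D7, at -2.61 ± 0.14. Aqp1, a water channel, had 4.02 and 2.55 TPM in Hypoxia_D3, against 19 and 23.6 TPM in Normoxia_D7. The other genes furthest below were Plpp1, a lipid phosphatase, with 60.7 and 51.7 TPM in Hypoxia_D3, against 239 and 255 TPM in Normoxia_D7, and Ckmt1, the mitochondrial creatine kinase, with 9.24 and 9.08 TPM in Hypoxia_D3, against 37.4 and 40.6 TPM in Normoxia_D7. Ckmt1 differed from the rest of this group in that Normoxia_D3, with 27.4 and 27.6 TPM, was well above Hypoxia_D3.

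Bmf, a pro-apoptotic member of the Bcl-2 family, had 4.02 and 4.28 TPM in Hypoxia_D3, against 21.5 and 26.8 TPM in Normoxia_D7. Sult1a1, a sulfotransferase, had 2.05 and 1.11 TPM in Hypoxia_D3, against 9.96 and 11.5 TPM in Normoxia_D7. Cxcl12, a chemokine of stromal cells, had 9.93 and 6.57 TPM in Hypoxia_D3, against 33.1 and 42.9 TPM in Normoxia_D7. Tnfaip2, a gene induced by tumour necrosis factor, had 12.7 and 11.7 TPM in Hypoxia_D3, against 38.3 and 46.0 TPM in Normoxia_D7. The relative differences of these 4 genes ran between -1.78 ± 0.15 for Tnfaip2 and -2.36 ± 0.15 for Bmf. Their libraries did not overlap between the groups, which was a condition of being picked. The mRNA furthest below of all, an unnamed gene (ENSCGRG00015027126), was listed at 0 in both Hypoxia_D3 libraries, in Normoxia_D3 and in Hypoxia_D7, and had 15.4 and 8.91 TPM in Normoxia_D7.

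The interferon response list leaned to the lower side. Of its 16 named genes 3 were lower, 12 agreed and none was higher, with a median of -0.45. The shares over all mRNAs were 1.01%, 94.5% and 0.678%, for this list and the adipokines below. Irf1, a transcription factor of the interferon response, had 8.89 and 5.67 TPM in Hypoxia_D3, against 18.6 and 23.2 TPM in Normoxia_D7. Psmb8, a catalytic subunit of the immunoproteasome, had 3.58 and 3.0 TPM in Hypoxia_D3, against 9.99 and 10.6 TPM in Normoxia_D7, and Psmb9, another such subunit, had 3.30 and 3.25 TPM in Hypoxia_D3, against 6.77 and 7.86 TPM in Normoxia_D7. The groups did not overlap for these 3 genes, as for every mRNA that differed. Aim2, a cytosolic DNA sensor, went the other way within the limits, with 25.0 and 24.3 TPM in Hypoxia_D3, against 18.0 and 18.2 TPM in Normoxia_D7. Of the 24 adipokines the study listed, 4 were lower, 17 agreed and none was higher: Fn1, the matrix protein fibronectin, had 13.2 and 22.9 TPM in Hypoxia_D3, against 42.5 and 65.3 TPM in Normoxia_D7, and Lgals3bp, Clu and Csf1 were lower by relative differences of -1.36 ± 0.13, -1.14 ± 0.16 and -1.03 ± 0.15. The study took that list from earlier work on adipose tissue.

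Agreement in other lists is given beside the 94.5% of all mRNAs that agreed. In oxidative phosphorylation 14 of 15 named genes agreed, with a median of -0.01, and Cox6a1, a subunit of cytochrome c oxidase, had 278 and 269 TPM in Hypoxia_D3, against 265 and 257 TPM in Normoxia_D7. All 12 named genes of the integrated stress response, all 14 of the actin cytoskeleton and all 16 ribosomal protein genes agreed, with medians of 0.12, 0.18 and -0.30. The ribosomal protein genes nevertheless leaned one way, with 8 of 16 lower at an adjusted p of limma under 0.05, by less than the size limit, and none higher. In the basement membrane list 11 of 13 agreed, among them Col4a1 with 59.9 and 63.6 TPM in Hypoxia_D3, against 49.4 and 60.4 TPM in Normoxia_D7. In the matrix deposition list of the study 5 of 48 genes were higher, 3 were lower and 35 agreed, where 0.678% of all mRNAs were higher and 1.01% lower.

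Markers of other cell types were read to check the culture. No named mRNA was found for any of the 9 macrophage, 6 mural or 5 skeletal muscle markers listed. Pecam1, the endothelial adhesion molecule, had 9.03 and 7.78 TPM in Hypoxia_D3, against 1.84 and 1.86 TPM in Normoxia_D7, at 1.64 ± 0.11, and was the 1 named marker of 6 for endothelial cells. Its part in the values above was not tested. Pdgfra, a marker of preadipocytes, agreed at 15.0 and 13.8 TPM in Hypoxia_D3, against 19.5 and 21.6 TPM in Normoxia_D7. Summed over the 6 named of 11 adipocyte markers, TPM was 204 and 162 in Hypoxia_D3, against 570 and 589 in Normoxia_D7. Most of each sum was Fabp4, with 132 and 107 TPM in Hypoxia_D3, against 428 and 414 TPM in Normoxia_D7. Lpl and Cd36 were lower as well, Pparg met neither definition, and Lipe and Pnpla2 agreed.

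The mRNAs that differed were then read in libraries outside the pair. Of the 70 higher in Hypoxia_D3, 12 were called higher and none lower in hypoxia at D0, which is 17.1% against the 0.969% of all mRNAs. In hypoxia at D1, 13 were called higher (18.6%, against 1.57%) and 1, Sema3a, lower. Mt1, Mt2, Tmem45a, Slc2a1, P4ha2 and Plod2 were called higher at both days, for example Slc2a1 at 2.43 ± 0.16 at D0 and 2.83 ± 0.16 at D1 (limma adjusted p = 1.8e-09 and 1.1e-10). Vcan, Igfbp4 and Fkbp5 were not called at either day, with relative differences at D0 of -0.25, -0.02 and -0.11. In the libraries labelled Normoxia_D11 against Normoxia_D1, 22 of the 70 were called lower (31.4%, against 7.88%) and 11 higher (15.7%, against 10.9%). Vcan, Igfbp4, Fkbp5 and Sema3a were among the lower and Slc2a1, Tmem45a, P4ha2 and Plod2 among the higher.

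Of the 104 lower in Hypoxia_D3, none was called by limma in hypoxia at D0. At an unadjusted p under 0.05, 26 were higher and 9 lower there, and the share of all mRNAs at that p is not given. In hypoxia at D1 7 were called higher (6.73%, against 1.57%) and none lower. The 7 included Aqp1, Plpp1, Cxcl12 and Plin2, which therefore stood higher in hypoxia than in normoxia at D1 although lower in Hypoxia_D3 than in Normoxia_D7. Plin2 was higher in hypoxia at D1 by 1.46 ± 0.10 (limma adjusted p = 4.3e-09). Between Normoxia_D11 and Normoxia_D1 68 of the 104 were called higher (65.4%, against 10.9%) and none lower. All 12 of the named genes furthest below, Mb to Tnfaip2, were among the 68. In the libraries labelled Hypoxia_D11, 11 of the 12 were called higher than Normoxia_D1, where 8.65% of all mRNAs were. Among the 9754 agreeing mRNAs, 74 were called higher (0.759%, against 0.969% of all) and 3 lower (0.0308%, against 0.0291%) in hypoxia at D0. In hypoxia at D1, 116 were called higher (1.19%, against 1.57%) and 17 lower (0.174%, against 0.291%). Between Normoxia_D11 and Normoxia_D1, 961 were called higher (9.85%, against 10.9%) and 737 lower (7.56%, against 7.88%).

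The stage values depended on which D11 libraries were used. The labels were kept as given. Bnip3, a HIF target, averaged 316 TPM in the libraries labelled Hypoxia_D11 and 689 TPM in those labelled Normoxia_D11. In the mitosis list no named gene was called lower than Normoxia_D1 in Normoxia_D11, where 7.88% of all mRNAs were. All 32 were called lower in Hypoxia_D11, where 8.93% of all mRNAs were. Only 32 of the 62 listed mitosis genes had a name, and names were chiefly those of genes the study had called or listed. The study's calls include hypoxia against normoxia at D11, so this contrast is in part built into the list. With the libraries labelled Hypoxia_D11 in place of Normoxia_D11, 74 of the 104 lower mRNAs were called higher than Normoxia_D1 (71.2%, against 8.65% of all mRNAs). Of the 70 higher mRNAs, 40 were called lower (57.1%, against 8.93%). Single calls moved as well: Fkbp5 was not called under that choice, at 0.18 (limma adjusted p = 0.36), and Aqp1 was not called, at 0.33 (limma adjusted p = 0.087).

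**Figure D4:**
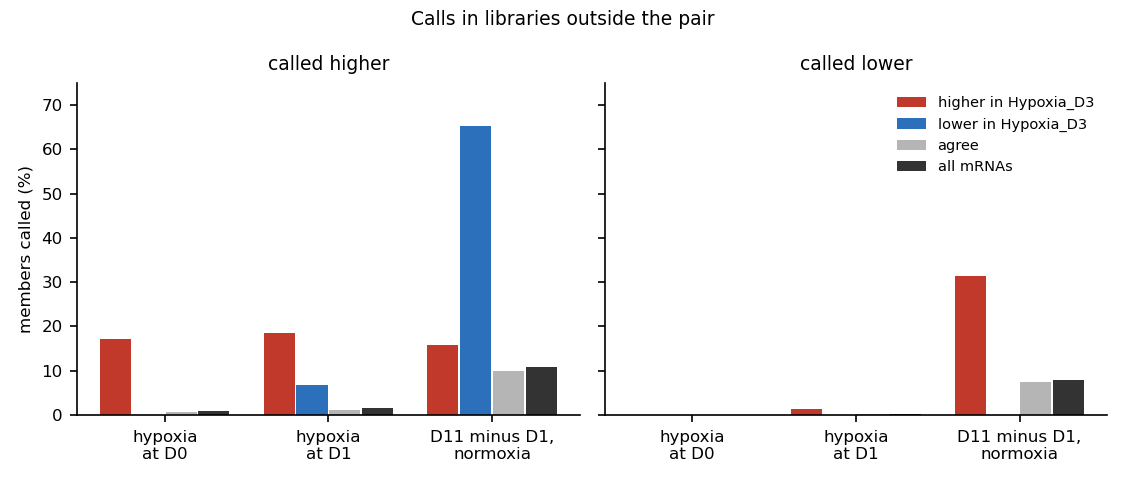
Percentage of the mRNAs higher in Hypoxia_D3 (70), lower in Hypoxia_D3 (104), agreeing (9754) and of all mRNAs (10318) that were called higher (left) or called lower (right) in 3 comparisons of other libraries: hypoxia minus normoxia at D0, hypoxia minus normoxia at D1, and D11 minus D1 in normoxia. The bar for the lower mRNAs reaches 65.4% among those called higher at D11, and that for the higher mRNAs reaches 17.1% in hypoxia at D0.

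Long noncoding RNAs (lncRNAs) were compared on log2(TPM + 0.1), relative to their own median difference of -0.06, with an adjusted p under 0.01. Of the 4295 lncRNAs, 40 were higher in Hypoxia_D3 (0.931%), 26 were lower (0.605%) and 2228 agreed (51.9%). The spread between libraries was wider than for mRNAs, with a median SE of 0.29, against 0.12 for mRNAs. Leaving out 1 library lowered the counts to 16 higher and 11 lower without Hypoxia_D3_1, 15 and 5 without Hypoxia_D3_2, 18 and 6 without Normoxia_D7_1, and 11 and 4 without Normoxia_D7_2. The lncRNAs are given by the identifiers of the files, since no names or functions were found for them.

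The lncRNA furthest above, ENSCGRG00015002620, had 1.44 and 1.69 TPM in Hypoxia_D3, against 0.0936 and 0.0153 TPM in Normoxia_D7, at 3.54 ± 0.48 (SE). Its call, like that of G14223, was lost without Hypoxia_D3_2 and without Normoxia_D7_2. G438, which the study paired by position with the coding gene Limk2, had 6.09 and 5.55 TPM in Hypoxia_D3, against 1.33 and 0.794 TPM in Normoxia_D7. Limk2 itself agreed, at 0.16. ENSCGRG00015013090 had 1.48 and 1.14 TPM in Hypoxia_D3, against 0.138 and 0.221 TPM in Normoxia_D7, while Normoxia_D3 had 1.61 and 1.85 TPM. G14223, paired by position with the chaperone gene Pdia4, had 10.6 and 12.3 TPM in Hypoxia_D3, against 3.44 and 1.73 TPM in Normoxia_D7. Abundant lncRNAs with hypoxic calls, picked after their values were seen, were G305 and G5310. G305 had 63.4 and 47.3 TPM in Hypoxia_D3, against 18.9 and 25.6 TPM in Normoxia_D7, and was called higher in hypoxia at D0 and D1, at 3.17 and 3.94. G5310 had 46.5 and 36.3 TPM in Hypoxia_D3, against 15.4 and 19.6 TPM in Normoxia_D7, and was called higher at D0 and D1, at 2.95 and 3.52.

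On the lower side, G15659 had 0.474 and 0.477 TPM in Hypoxia_D3, against 2.63 and 3.56 TPM in Normoxia_D7, at -2.39 ± 0.27. G10898 had 0.697 and 0.431 TPM in Hypoxia_D3, against 3.10 and 3.39 TPM in Normoxia_D7. G11092 had 0.395 and 0.163 TPM in Hypoxia_D3, against 1.53 and 1.93 TPM in Normoxia_D7. As in all 26 lower lncRNAs, every Normoxia_D7 library was above every Hypoxia_D3 library in these 3. Over all lncRNAs, 49.3% did not overlap between the groups, in either direction. The Normoxia_D3 means of these 3 were 0.328, 0.661 and 0.0569 TPM. G9001 had 0.272 and 0.284 TPM in Hypoxia_D3, against 1.43 and 1.93 TPM in Normoxia_D7. None of the 4 was called by limma in hypoxia at D0 or D1. In the libraries labelled Normoxia_D11 3 were called higher than in Normoxia_D1, where 9.24% of all lncRNAs were, and in those labelled Hypoxia_D11 all 4 were, where 7.80% were. The call of G10898 in the pair was lost without Hypoxia_D3_2 and without either library of Normoxia_D7, and that of G11092 without Normoxia_D7_2.

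Among agreeing lncRNAs, G4128, paired by position with the retinal reductase gene Dhrs3, had 1.97 and 2.23 TPM in Hypoxia_D3, against 2.50 and 3.07 TPM in Normoxia_D7, where Normoxia_D3 had 0.0864 and 0.250 TPM. It no longer agreed when any 1 of the 4 libraries was left out, at -0.46 to -0.21. Dhrs3 itself was lower in Hypoxia_D3 by a relative difference of -1.01 ± 0.15 (SE), just past the size limit. G1345, paired by position with the phosphoglucomutase gene Pgm2, had 3.38 and 3.74 TPM in Hypoxia_D3, against 3.18 and 2.98 TPM in Normoxia_D7, where Normoxia_D3 had 0.524 and 0.694 TPM. ENSCGRG00015013638 had 3.39 and 2.86 TPM in Hypoxia_D3, against 3.32 and 4.08 TPM in Normoxia_D7. All 3 were called higher in hypoxia at D1 and 2 of them at D0, where 0.698% and 0.466% of all lncRNAs were. Below Normoxia_D3, G15361 had 14.0 and 10.8 TPM in Hypoxia_D3, against 16.5 and 16.5 TPM in Normoxia_D7, with 43.3 and 39.3 TPM in Normoxia_D3. G1195 had 7.24 and 5.50 TPM in Hypoxia_D3, against 5.29 and 5.57 TPM in Normoxia_D7, and ENSCGRG00015007393 had 0.379 and 0.433 TPM in Hypoxia_D3, against 0.467 and 0.401 TPM in Normoxia_D7. The groups overlapped for both.

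**Figure D5:**
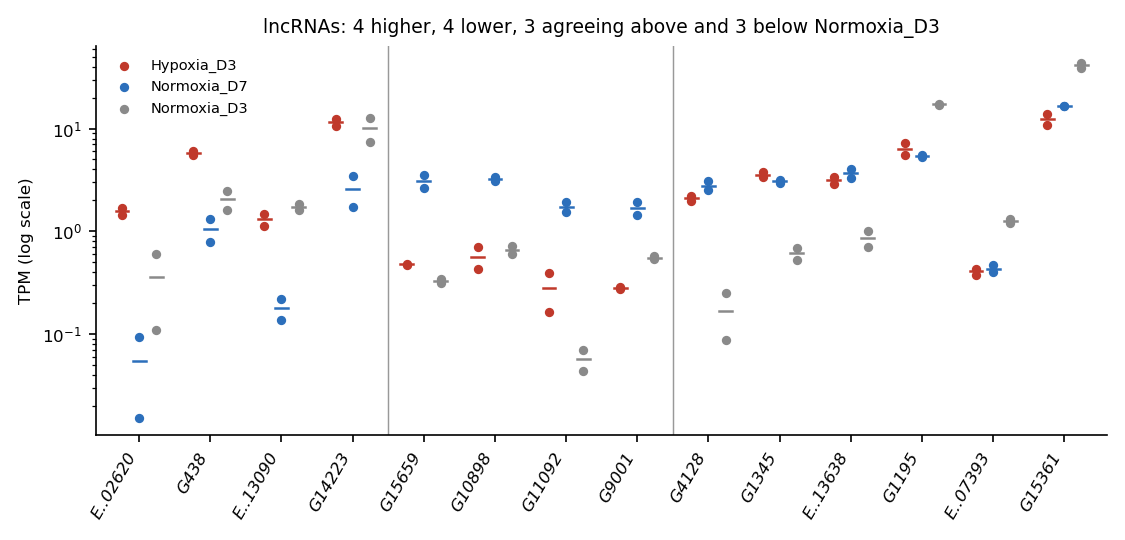
TPM on a log scale of 14 lncRNAs (E.. stands for ENSCGRG000150): 4 higher and 4 lower in Hypoxia_D3 than in Normoxia_D7, 3 agreeing above and 3 agreeing below Normoxia_D3. Points are libraries and bars the mean of 2 libraries; G14223 has 10.6 and 12.3 TPM in Hypoxia_D3 and 3.44 and 1.73 TPM in Normoxia_D7.

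In libraries outside the pair, 3 of the 40 higher lncRNAs were called higher and 3 lower in hypoxia at D0, where 0.466% and 0.163% of all lncRNAs were. In hypoxia at D1 the counts were 4 higher and 4 lower, against 0.698% and 0.675% of all lncRNAs. Between Normoxia_D11 and Normoxia_D1, 16 of the 40 were called lower and 5 higher, where 9.06% of all lncRNAs were called lower and 9.24% higher. With the libraries labelled Hypoxia_D11 in place of Normoxia_D11, 27 of the 40 were called lower and 2 higher, where 12.1% of all lncRNAs were called lower and 7.80% higher. Of the 26 lower lncRNAs, 1 was called higher in hypoxia at D0 and none was called by limma in hypoxia at D1. At an unadjusted p under 0.05, 4 were higher and 2 lower at D1, and the share of all lncRNAs at that p is not given. Between Normoxia_D11 and Normoxia_D1, 13 of the 26 were called higher and 1 lower. Of 75 coding genes that the study paired with the higher lncRNAs by position 71 agreed, and of 36 paired with the lower lncRNAs 30 agreed, beside 94.5% of all mRNAs.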

How the data were processed

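The authors sequenced strand-specific libraries depleted of ribosomal RNA, estimated the deposited TPM values and kept expressed features, 10318 mRNAs and 4295 lncRNAs, which were used as they stand. The submitters' processing notes name CASAVA 1.8.2, STAR 2.6.0c and kallisto 0.44.0. TPM keeps no read depth, so the depth is unknown and low values have no counting interval. The mRNA rows sum to between 281144 and 303397 TPM in the 4 libraries compared. Of the mRNA rows, 12 form 6 pairs with identical values in every library; none of them is named here.

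Libraries were assigned by column name, 2 for each of 10 groups. The logarithm was log2(TPM + 1) in the mRNA table and log2(TPM + 0.1) in the lncRNA table, and each table was fitted with limma 3.58.1 in R 4.3.3 (a mean for each group, 10 residual degrees of freedom, trended variance). The median difference was subtracted before the test and p-values were adjusted over all rows. Differences understate the change of genes near the pseudocount. The study calls the libraries biological replicates but does not state separate cultures, so a p-value reflects library-to-library spread alone, which may be technical. The fit was tested on simulated data.

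Names came from the study's supplementary tables; 5 that spreadsheet software had turned into numbers were left out. Named are the 12 higher and 12 lower mRNAs with the largest relative difference, at least 10 TPM in the higher group and no overlap; the 8 agreeing mRNAs that moved most above and the 8 below Normoxia_D3; up to 4 differing and 3 agreeing members of each list described; and 4 higher, 4 lower, 3 and 3 agreeing lncRNAs with at least 1 TPM. Genes named outside this rule, such as Ndufa4l2, Pparg, Aim2 and Col4a1, were chosen after their values were seen. A gene that the rule names is not reported here. The 28 lists, of which 8 are the study's, and the pair itself were chosen with earlier results of these data known.

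Alternatives were other pseudocounts, a filter on low TPM, no subtraction of the median, libraries centred or quantile normalized, fits of fewer libraries, a replicate block and each library left out. The use of the Hypoxia_D11 libraries in place of Normoxia_D11 was chosen after seeing the data.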

Additional observations from a re-analysis of the deposited data

Results flagged for a closer look

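For 3 of the named genes the effect of hypoxia at D1 differed from that at D0 by an interaction term of the same limma fit, adjusted over all mRNAs. Ciart was raised more at D1, by 1.17 on the log2(TPM + 1) scale. Aqp1 was likewise raised more at D1, by 1.40. Ankrd37 was raised less at D1 than at D0, with a difference of -0.74. The 4 libraries of the pair enter none of these differences, but they do enter the spread of the fit behind the adjusted p.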

How the results depend on the processing

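No alternative turned a call in the pair the other way. With a pseudocount of 0.1, 158 mRNAs were higher and 190 lower in Hypoxia_D3, and 18 of the main 104 were called higher in hypoxia at D1. With a mean of at least 5 TPM, 67 were lower and 6493 agreed. Without subtracting the median, which shifts all values by 0.08, 101 were higher and 79 lower, against 70 and 104. For lncRNAs, a pseudocount of 1 gave 14 higher, 9 lower and 4044 agreeing, a mean of at least 0.5 TPM gave 17 lower and 1458 agreeing, quantile normalization gave 43 lower, the mRNA median gave 41 lower, an adjusted p of 0.05 gave 88 higher and 55 lower, and a 1.5-fold margin left 390 agreeing. With the 4 libraries alone limma called 0 lncRNAs in either direction, and 410 were higher and 312 lower at an unadjusted p under 0.05; this fit has fewer samples. Leaving out 1 library gave 58 to 91 higher and 98 to 120 lower mRNAs, and 11 to 18 higher and 4 to 11 lower lncRNAs. Mean profile likeness was 0.975 by Spearman's rho and 0.950 on untransformed TPM for mRNAs, and 0.884 and 0.989 for lncRNAs. With the libraries labelled Hypoxia_D11, chosen after seeing the data, 40 of the 70 were called lower, where 8.93% of all mRNAs were. Same-numbered libraries did not deviate together (correlation -0.01 for mRNAs and 0.01 for lncRNAs), and the replicate block gave 70 higher and 103 lower mRNAs and 39 higher and 23 lower lncRNAs. The cause of these shifts was not tested. TPM holds no depth, so the precision of low values is unknown.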
